A study of Mus musculus with 24 samples.

Results

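The IL-1β response of clone A1 was compared with that of its parental Lkb1-/- mouse embryonic fibroblasts (MEFs) by RNA sequencing. Each gene was tested for the difference of its 2 responses, (clone A1 with IL-1β minus clone A1 untreated) minus (Lkb1-/- with IL-1β minus Lkb1-/- untreated), on the log2 scale. This contrast rests on 12 of the 24 libraries of the series, in 4 groups of 3. The groups were Lkb1-/- MEFs (labelled KO) and Lkb1-/-/Crtc2-/- MEFs of clone A1 (labelled DKO_A1), each left untreated (ctrl) or given IL-1β during 6 hours, and all of them lack LKB1. The other 12 libraries, of wild-type MEFs (WT) and of a second Lkb1-/-/Crtc2-/- clone, A2 (DKO_A2), under the same treatments, entered the fit for the estimate of the spread and were used for comparison. Both clones were expanded from single cells after Cas9 editing of Crtc2, so a property of 1 clone and the loss of CRTC2 cannot be told apart from the difference between clone A1 and Lkb1-/- MEFs alone. Nothing in the labels ties the 3 libraries of a group to separate cultures, and p-values measure the spread between these libraries.

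IL-1β is an inflammatory cytokine whose receptor activates NF-κB and MAP kinases through MYD88 and the IRAK kinases. NF-κB then switches on cytokines, chemokines and matrix proteases, together with its own inhibitors, which end the signal. LKB1, encoded by Stk11, activates the salt-inducible kinases, which keep the CREB coactivator CRTC2 in the cytoplasm. In cells without LKB1, CRTC2 can enter the nucleus and act with CREB, and the comparison asks which parts of the response to IL-1β differ once Crtc2 is also edited.

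Stk11 was at 16.3 to 18.7 CPM (counts scaled to library size with TMM factors) in the 6 Lkb1-/- libraries and at 20.7 to 23.1 CPM in the 6 libraries of clone A1, against 83.4 to 87.9 CPM in the 6 wild-type libraries. Crtc2 was at 82.1, 79.1 and 82.3 CPM in untreated Lkb1-/- MEFs and at 79.4, 84.6 and 84.2 CPM after IL-1β. In clone A1 it was at 45.2, 41.1 and 42.4 CPM untreated and at 52.4, 46.1 and 43.1 CPM after IL-1β. All 6 libraries of clone A1 were thus below all 6 Lkb1-/- libraries, and Crtc2 reads remained. The edit was targeted to the first exon, and the counts cover the whole gene, so the level of Crtc2 is no check of the edit itself. Counts on genes lay between 38842901 and 48594394 in the 12 libraries. Of 11 fibroblast markers, 9 passed the filter on low counts, and Thy1 and Lum did not, with at most 3 and 10 counts in any of the 12 libraries. The summed level of the 11 markers was 6810 to 7790 CPM in untreated and 5850 to 7320 CPM in IL-1β-treated Lkb1-/- MEFs, and 9030 to 9940 CPM and 8030 to 8960 CPM in clone A1. Markers of leukocytes, endothelium, epithelium and muscle summed to between 1.94 and 3.15 CPM over 12 genes, with Adgre1 at 0 in every library. Changes in RNA per cell and changes in the make-up of the cultures cannot be told apart in such bulk samples.

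Genes called with a smaller log2 response in clone A1 than in Lkb1-/- MEFs included the cytokine Lif, the chemokine Ccl2, inhibitors and subunits of NF-κB, matrix proteases and Ptgs2. Of 17522 genes tested, 5 were called with a smaller response in clone A1 and 0 with a larger one (0.0285% of genes) in the model without a replicate block, by edgeR's quasi-likelihood test at a Benjamini-Hochberg false discovery rate (FDR) under 0.05. When the numbered pairs of a genotype were fitted as blocks, 267 genes (1.52%) were called, 160 lower in clone A1 (0.913%) and 107 higher (0.611%). With 1 block for each replicate number across all groups, 36 genes (0.205%) were called, 26 lower and 10 higher, all of them among the 267. Leaving out 1 numbered pair changed the 267 to between 152, without pair 3 of Lkb1-/- MEFs, and 335, without pair 1 of Lkb1-/- MEFs. The replicate numbers pair the libraries by the check given with the methods, so both fits are given, and the block removes the spread that an untreated and a treated library of the same number share. All 5 genes of the fit without the block were among the 267. The median difference over all genes was 0.001 on the log2 scale. Among the 267 genes, the absolute log2 difference had a median of 0.43, and it was above 1 for 22 genes.

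**Figure D1:**
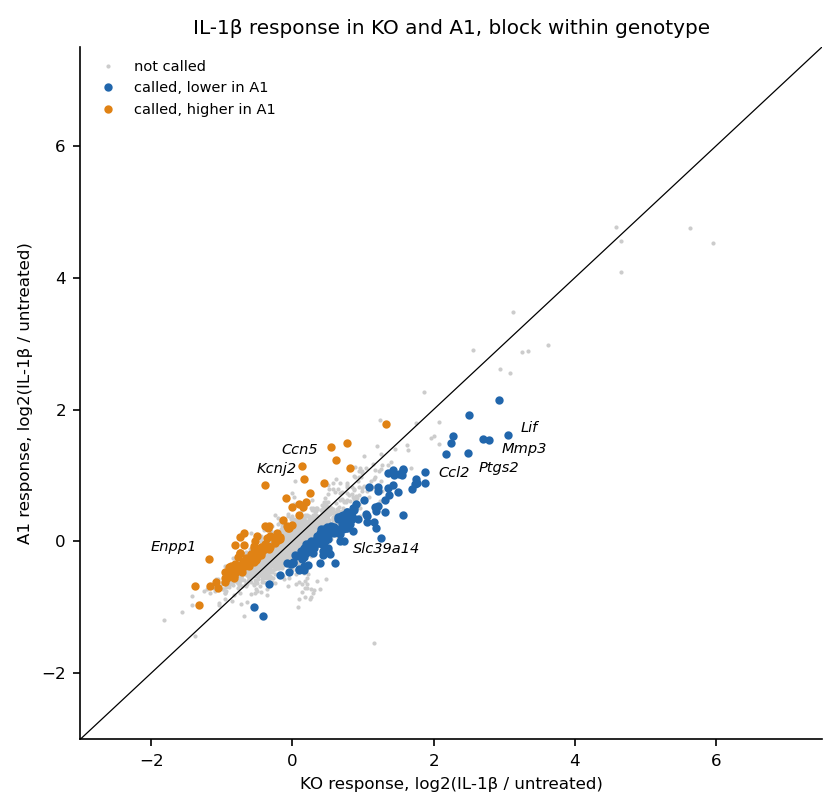
Responses to IL-1β in Lkb1-/- MEFs (horizontal axis) and clone A1 (vertical axis), as log2 of IL-1β over untreated from the fit with the block, for the 10582 genes with a mean log2 CPM above 2. Blue points are called genes with a smaller or more negative response in clone A1 and orange points those with a larger one, 250 called genes in all, and the line marks equal responses.

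Each arm was also tested on its own. In Lkb1-/- MEFs 831 genes (4.74%) were called after IL-1β without the block, and in clone A1 348 genes (1.99%). With the block, 1516 genes rose (8.65%) and 2450 fell (14%) in Lkb1-/- MEFs, and 992 rose (5.66%) and 1868 fell (10.7%) in clone A1. These counts of calls are not a test of the difference, which is the contrast given above.

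Lif, which encodes leukemia inhibitory factor, an IL-6 family cytokine, had the smallest FDR in the fit without the block. It lies on chromosome 11 of GRCm38 from 4257557 to 4272514. In Lkb1-/- MEFs its level was 10.9, 9.42 and 7.43 CPM untreated and 81.0, 67.9 and 80.8 CPM after IL-1β, in order of the replicate number. In clone A1 it was 14.2, 16 and 11.3 CPM untreated and 42.5, 42.6 and 41.3 CPM after IL-1β. Clone A1 thus started higher and ended lower, with no overlap of the groups at either step. The log2 response was 3.05 in Lkb1-/- MEFs and 1.61 in clone A1, a difference of −1.44 (SE 0.21, FDR 0.015 in edgeR's test) without the block and −1.43 (SE 0.15, FDR 8.8e-06) with the block. In clone A2 the response was 1.93, and it differed from that of clone A1 by −0.32 (SE 0.16, FDR 0.52 with the block), a difference that did not pass the test.

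Ccl2, the main chemokine that attracts monocytes, lies on chromosome 11 from 82035571 to 82037453. Its level in Lkb1-/- MEFs was 189, 220 and 166 CPM untreated and 842, 883 and 871 CPM after IL-1β. In clone A1 it was 567, 650 and 547 CPM untreated and 1420, 1470 and 1510 CPM after IL-1β. Clone A1 was higher than Lkb1-/- MEFs at both steps, and only its fold was smaller. The log2 response was 2.17 in Lkb1-/- MEFs and 1.32 in clone A1, a difference of −0.86 (SE 0.15, FDR 0.031 without the block, and 0.00012 with it). In CPM, the mean rise was 673 in Lkb1-/- MEFs and 878 in clone A1, so the direction depends on whether the response is read as a ratio or as an increment.

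Rab11fip1, an effector of the recycling GTPase RAB11, lies on chromosome 8 from 27138773 to 27174646. It rose from 48.8, 47.1 and 49.1 CPM to 95.4, 105 and 126 CPM in Lkb1-/- MEFs. In clone A1 it went from 33.5, 33.0 and 35.4 CPM to 38.7, 40.4 and 46.3 CPM. The groups did not overlap at either step, and the difference of log2 responses was −0.87 (SE 0.15, FDR 0.031 without the block, 2.7e-06 with it). Tbx3, a T-box transcription factor of limb and mammary development, lies on chromosome 5 from 119670669 to 119684724. It went from 33.3, 32.2 and 34.1 CPM to 80.7, 77.9 and 89.0 CPM in Lkb1-/- MEFs, and from 16, 17.6 and 19.1 CPM to 27.4, 25.4 and 29.0 CPM in clone A1. Its difference was −0.68 (SE 0.12, FDR 0.031 without the block, 2e-05 with it). Slc39a14, the zinc and iron importer ZIP14, lies on chromosome 14 from 70303469 to 70351425. It rose from 154, 151 and 151 CPM to 217, 254 and 259 CPM in Lkb1-/- MEFs. In clone A1 it was at 134, 134 and 129 CPM untreated and at 134, 134 and 131 CPM after IL-1β, a log2 response of 0.01. The difference was −0.67 (SE 0.11, FDR 0.026 without the block, 3.6e-05 with it).

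Clone A2 and wild-type MEFs, whose libraries the difference does not use, placed these genes differently. The log2 response of Tbx3 was 1.27 in clone A2, and the difference between clones A1 and A2 was −0.64 (SE 0.078, FDR 8.3e-05 with the block). For Ccl2 the clones differed by −0.55 (FDR 0.012 with the block). For Slc39a14 and Rab11fip1 the difference between the clones was −0.31 (FDR 0.056) and −0.15 (FDR 0.58). Without the block none of the 5 differences between the clones passed the test (FDR 0.3 to 1). In wild-type MEFs, Tbx3 and Slc39a14 had log2 responses of −0.18 (FDR 0.029) and −0.09 (FDR 0.32), Lif 0.8, Rab11fip1 0.47 and Ccl2 2.44, all from the fit with the block.

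Leaving out 1 of the 12 libraries left between 0 and 3 calls in the fit without the block. The call of Lif was lost without either of the libraries labelled replicate 1 and 2 of clone A1 with IL-1β, without untreated replicate 2 of clone A1, and without replicate 3 of either Lkb1-/- group, with an FDR of at most 0.089. The other 4 genes lost their calls in 10 or 11 of the 12 fits, with an FDR of at most 0.17. With only the 12 libraries of the contrast in the fit without the block, 4 genes were called, 3 of them among the 5, and Tbx3 (FDR 0.065) and Ccl2 (FDR 0.083) were not. With the block, all 5 remained called without any of the 6 numbered pairs, and the log2 difference of Lif stayed between −1.55 and −1.26.

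**Figure D2:**
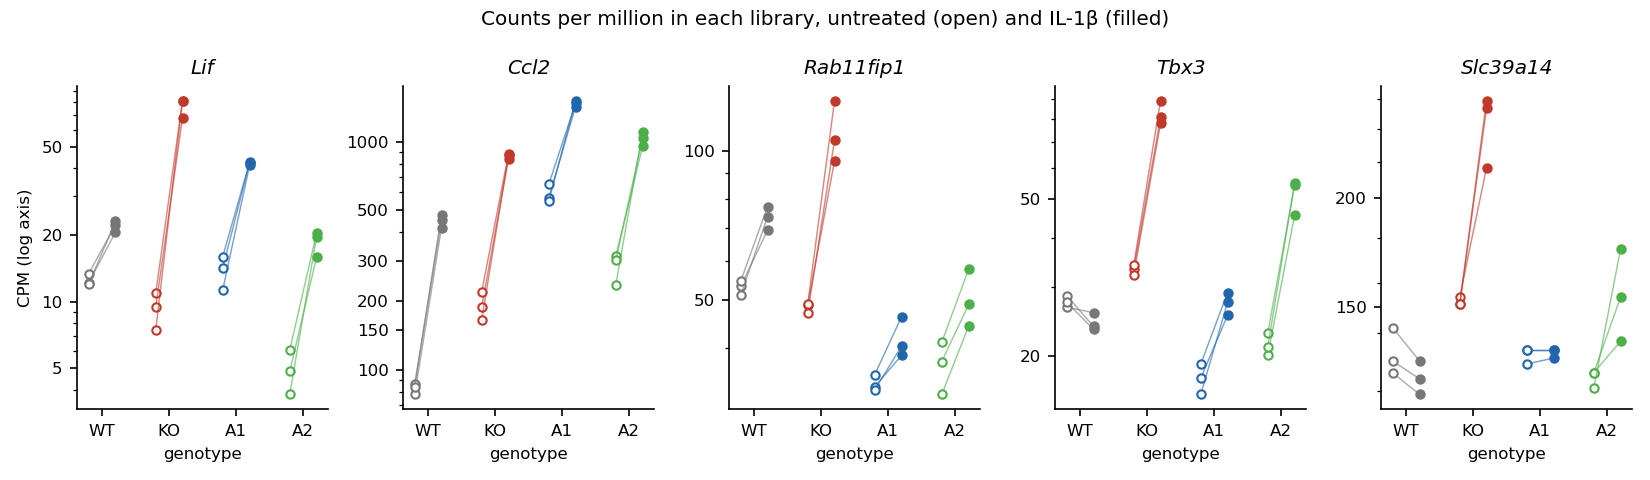
Level of the 5 genes called without the block, in CPM on a log axis, in each of the 24 libraries. Open points are untreated and filled points IL-1β-treated libraries, and lines join libraries of the same genotype and number. In all 5 panels the lines of A1 are flatter than those of KO.

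Genes called with the block, with a mean log2 CPM above 2 and pair ratios that do not overlap, were ranked by their difference. The 10 largest differences among them toward a smaller response in clone A1 were those of Lif, Mmp3, Irak3, Traf1, Ptgs2, Serpina3h, Stc1, Mmp9, Cdc42ep3 and Ltbp2. Mmp3 encodes stromelysin 1, a protease that degrades matrix proteins. It went from 94.6, 84.5 and 76.2 CPM to 507, 629 and 628 CPM in Lkb1-/- MEFs, and from 185, 130 and 102 CPM to 454, 328 and 401 CPM in clone A1. The difference of log2 responses was −1.25 (SE 0.16, FDR 0.00012 with the block), and without the block it was −1.28 (SE 0.36, FDR 1). Ptgs2 encodes cyclooxygenase 2, the inducible enzyme of prostaglandin synthesis, and is a known target of CREB as well as of NF-κB. It went from 177, 104 and 104 CPM to 789, 577 and 757 CPM in Lkb1-/- MEFs, and from 99.6, 92.6 and 71.5 CPM to 237, 196 and 231 CPM in clone A1. Its difference was −1.16 (SE 0.22, FDR 0.0054), and it missed the threshold without pair 3 of Lkb1-/- MEFs (FDR 0.054). In clone A2 the log2 response of Ptgs2 was 2.47, which differed from that of clone A1 by −1.13 (FDR 0.015).

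Irak3 encodes IRAK-M, a kinase-dead inhibitor of IL-1 receptor signalling. It went from 5.89, 5.73 and 6.93 CPM to 11.5, 15.7 and 17.6 CPM in Lkb1-/- MEFs, while clone A1 was at 2.49, 3.55 and 3.75 CPM untreated and at 3.04, 3.57 and 3.5 CPM after IL-1β. Its response of 0.05 in clone A1 did not pass the test (FDR 0.85), and the difference was −1.20 (SE 0.17, FDR 0.00022). Stc1, a secreted regulator of calcium and phosphate, went from 40.7, 40.1 and 46.1 CPM to 80.9, 103 and 108 CPM in Lkb1-/- MEFs and was at 22.4, 17.6 and 22.9 CPM and then 22.3, 21.5 and 28.6 CPM in clone A1. Its difference was −0.99 (SE 0.15, FDR 0.00073). Mmp9, a gelatinase, had a difference of −0.98 (SE 0.17, FDR 0.0025), and Cdc42ep3, an effector of CDC42, one of −0.93 (SE 0.11, FDR 3.2e-05), since it rose by 0.60 in Lkb1-/- MEFs and fell by 0.33 in clone A1 on the log2 scale. The difference of Ltbp2, a matrix protein that resembles TGF-β binding proteins, was −0.90 (FDR 0.016), and its call was lost without 4 of the 6 pairs. Serpina3h, with a difference of −1.15 (FDR 2.3e-05), belongs to a cluster of near-identical serpin genes, and its counts are uncertain because reads that map to several copies are not counted.

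NF-κB subunits and feedback inhibitors were the list with the most calls by count, although the lists differ in size. For comparison, 7 of 18 genes of nitric oxide and metal handling were called, and of 9 fibroblast markers 1 was called lower and 4 higher. Of the 20 NF-κB genes tested, 8 were called with a smaller response in clone A1 and 0 with a larger one. Of their differences, 18 of 20 lay below 0, with a median of −0.35, against 0.001 over all genes. Over all genes 0.913% were called lower, as given above. Without the block 0 of the 20 were called, and without single pairs the count was 5 to 9. The called genes included the subunits Relb and Nfkb2, the IκB inhibitors Nfkbia and Nfkbie, and the ubiquitin-editing enzyme Tnfaip3 (A20) with its partner Tnip1. The others were Birc3, a ubiquitin ligase, and the signalling adaptor Traf1. Tnfaip3 went from 28.4, 27.1 and 21.3 CPM to 76.8, 87.4 and 93.4 CPM in Lkb1-/- MEFs, and from 60, 71.9 and 53.4 CPM to 108, 119 and 130 CPM in clone A1. As with Ccl2, clone A1 was above Lkb1-/- MEFs at both steps and had the smaller fold, with a difference of −0.80 (SE 0.15, FDR 0.0042). Nfkb2, which encodes p100, went from 134, 139 and 123 CPM to 171, 198 and 194 CPM in Lkb1-/- MEFs, while in clone A1 it was at 129, 136 and 119 CPM and then 130, 137 and 127 CPM. The 2 genotypes were close before IL-1β and apart after it, and the difference was −0.46 (SE 0.065, FDR 0.00026).

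Nfkbia, which encodes IκBα, went from 72.7, 76.7 and 59.4 CPM to 180, 216 and 197 CPM in Lkb1-/- MEFs and from 115, 142 and 113 CPM to 223, 260 and 270 CPM in clone A1. Its difference of −0.48 (SE 0.11, FDR 0.020) lost its call without 4 of the 6 pairs, as did those of Tnip1 (−0.37, FDR 0.048) without 5 pairs and Birc3 (−0.51, FDR 0.0046) without 3 pairs. Those of Traf1 (−1.17, FDR 0.0015), Nfkbie (−0.64, FDR 0.0016) and Relb (−0.56, FDR 0.0014) were called without each pair in turn. In clone A2 the 20 genes had a median log2 response of 0.69, against 0.59 in Lkb1-/- MEFs, 0.57 in wild-type MEFs and 0.21 in clone A1. Of the 20, 4 were called lower in clone A1 than in clone A2, over all genes 0.742%.

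**Figure D3:**
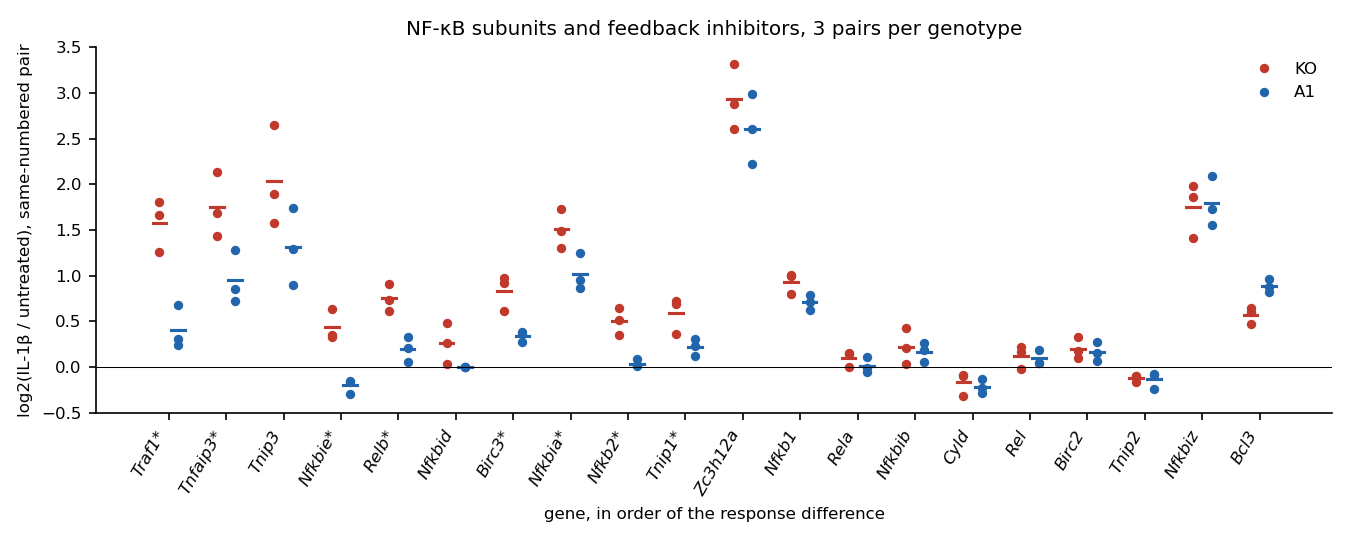
Response to IL-1β of the 20 NF-κB genes in the 3 same-numbered pairs of Lkb1-/- MEFs (KO, red) and clone A1 (blue), as the log2 ratio of IL-1β over untreated, with the mean as a bar. Genes are ordered by the difference and a star marks those called with the block, for which the points of the 2 genotypes do not overlap. The same held for all 267 called genes and for 14.3% of all genes tested.

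The regions just before the transcription starts of 4 genes with a smaller response and 2 with a larger one are shown, chosen because they held a match to 1 of the motifs below. The windows of Ptgs2 and Traf1, also called lower, were searched in the same way and held none, and are not shown. Each is the 250 bases before the RefSeq start on GRCm38.p6, written 5′ to 3′ in the direction of the gene. Capitals mark matches on either strand to the NF-κB consensus, to the AP-1 motif TGANTCA or to the CRE half-site TGACG, which is part of the full CRE, TGACGTCA.
Lif, chr11:4257318-4257567, plus strand: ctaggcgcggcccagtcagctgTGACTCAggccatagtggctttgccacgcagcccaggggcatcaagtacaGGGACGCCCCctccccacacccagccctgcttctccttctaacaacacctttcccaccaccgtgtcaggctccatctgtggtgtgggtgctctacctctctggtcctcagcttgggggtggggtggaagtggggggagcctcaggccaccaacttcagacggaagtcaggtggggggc
Mmp3, chr9:7445572-7445821, plus strand: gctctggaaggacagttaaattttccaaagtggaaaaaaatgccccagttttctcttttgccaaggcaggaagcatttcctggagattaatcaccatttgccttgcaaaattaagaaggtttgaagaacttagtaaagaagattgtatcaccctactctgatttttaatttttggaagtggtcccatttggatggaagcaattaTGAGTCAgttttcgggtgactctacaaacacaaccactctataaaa
Nfkbia, chr12:55492648-55492897, minus strand: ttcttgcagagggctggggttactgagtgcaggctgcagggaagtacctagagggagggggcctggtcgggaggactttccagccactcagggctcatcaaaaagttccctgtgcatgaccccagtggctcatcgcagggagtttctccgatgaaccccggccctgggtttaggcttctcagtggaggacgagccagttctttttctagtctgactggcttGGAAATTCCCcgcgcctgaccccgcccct
Nfkbie, chr17:45555450-45555699, plus strand: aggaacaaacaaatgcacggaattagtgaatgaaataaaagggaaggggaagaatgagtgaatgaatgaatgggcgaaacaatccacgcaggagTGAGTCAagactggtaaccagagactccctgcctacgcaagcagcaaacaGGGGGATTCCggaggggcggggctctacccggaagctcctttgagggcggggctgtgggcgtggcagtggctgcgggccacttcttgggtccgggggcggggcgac
Enpp1, chr10:24712160-24712409, minus strand: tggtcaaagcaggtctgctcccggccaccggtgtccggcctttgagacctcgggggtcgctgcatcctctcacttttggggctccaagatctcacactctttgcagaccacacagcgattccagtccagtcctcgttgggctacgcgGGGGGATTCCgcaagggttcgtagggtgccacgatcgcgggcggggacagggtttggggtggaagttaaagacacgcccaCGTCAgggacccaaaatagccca
Adamts1, chr16:85803114-85803363, minus strand: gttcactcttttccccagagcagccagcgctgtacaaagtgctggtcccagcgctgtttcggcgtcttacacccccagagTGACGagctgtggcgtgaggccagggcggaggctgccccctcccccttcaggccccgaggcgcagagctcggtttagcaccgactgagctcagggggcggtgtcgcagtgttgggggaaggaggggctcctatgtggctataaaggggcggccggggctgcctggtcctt

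The Lif window held 1 NF-κB match that starts 178 bases before the start and 1 AP-1 match at 228 bases. The Mmp3 window held 1 AP-1 match at 46 bases, that of Nfkbia 1 NF-κB match at 29 bases, and that of Nfkbie 1 NF-κB match at 106 bases and 1 AP-1 match at 156 bases. Among the genes with a larger response, Enpp1 had 1 NF-κB match at 103 bases and 1 CRE half-site at 23 bases, and Adamts1 had 1 half-site at 170 bases. None of the 6 windows held a full CRE. Such matches were common: of 27025 mouse genes with a RefSeq window, 8.23% held the NF-κB consensus, 7.82% the AP-1 motif, 19.8% the half-site and 1.77% the full CRE. Of the 10887 genes tested here that had a window, these shares were 10.8%, 5.93%, 30.1% and 3%. Only 109 of the 160 genes called lower and 70 of the 107 called higher had a window. This is fewer than 80% of either set, so motif shares of these sets are not compared here.

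The secreted factors did not move as 1 group. Over all genes, 0.913% were called lower and 0.611% higher. Of 7 IL-6 family ligands, only Lif was called. Il6, the cytokine that gives the family its name, was at 2.22, 2.02 and 1.43 CPM untreated and at 121, 109 and 125 CPM after IL-1β in Lkb1-/- MEFs. In clone A1 it was at 0.366, 0.240 and 0.161 CPM and then 5.79, 5.87 and 5.97 CPM. Its level after IL-1β was thus far lower in clone A1, but so was its level before, and the difference of log2 responses of −1.44 had an SE of 0.44 (FDR 0.13 with the block, 1 without). Il11 had a difference of −0.55 (SE 0.18, FDR 0.20) and Clcf1 one of 0.16 (SE 0.077, FDR 0.54). Among 11 CC chemokines, Ccl2 and its neighbour Ccl7 were called lower and none higher, with a median over the list of 0.23. Ccl7, another monocyte attractant, went from 147, 181 and 143 CPM to 468, 478 and 439 CPM in Lkb1-/- MEFs and from 501, 546 and 462 CPM to 1090, 1080 and 1020 CPM in clone A1, a difference of −0.48 (FDR 0.0017).

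None of the 5 neutrophil-attracting CXC chemokines was called, though they were among the genes with the highest responses. Cxcl5 had a log2 response of 4.66 in Lkb1-/- MEFs and 4.56 in clone A1, a difference of −0.11 (SE 0.19, FDR 0.96). Cxcl1 went from 12.5, 13.3 and 9.14 CPM to 573, 549 and 611 CPM in Lkb1-/- MEFs and from 16, 17.6 and 11.6 CPM to 374, 388 and 452 CPM in clone A1. Its difference was −0.88 (SE 0.23, FDR 0.062), just above the threshold, and that of Cxcl2 was −0.58 (SE 0.24, FDR 0.40). Of 6 other CXC and CX3C chemokines, Cxcl12, which retains blood stem cells in the marrow, and Cx3cl1 (fractalkine) were called with differences of 0.35 (FDR 0.0033) and 0.62 (FDR 0.019). Cxcl12 fell from 54.2, 80.8 and 64.1 CPM to 38.3, 65.6 and 49.0 CPM in Lkb1-/- MEFs and was at 177, 238 and 247 CPM and then 171, 229 and 243 CPM in clone A1. Of 24 other cytokines and growth factors, 3 were called lower (Vegfc, Hbegf and Tnfsf15) and Hgf higher, against 0.913% and 0.611% of all genes. Tnfsf15 had at most 4 counts in an untreated Lkb1-/- library, and no fold is given. Without single pairs 1 to 4 members of this list were called lower, and without the block 0. The call of Vegfc was lost without 5 of the 6 pairs, that of Tnfsf15 without 4 and that of Cx3cl1 without 3. Vegfa and Tnfsf11, an angiogenic factor and the osteoclast factor RANKL, had differences of −0.05 (SE 0.069, FDR 0.94) and 0.59 (SE 0.20, FDR 0.22).

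Of 18 genes of nitric oxide and metal handling, 7 were called lower and 0 higher, against 0.913% and 0.611% of all genes, although the median over the list was −0.08. The count was 4 to 8 without single pairs and 1 without the block. Among them were Ass1 and Slc7a2, which make and import arginine, Gch1, which makes the cofactor of nitric oxide synthase, the metal transporters Slc39a14 and Slc11a2, and Sod2, the mitochondrial superoxide dismutase. Arg2, which encodes an arginase, was also called lower. The calls of Slc11a2, Arg2 and Gch1 were lost without 5, 5 and 3 of the 6 pairs. Sod2 went from 129, 143 and 136 CPM to 347, 533 and 521 CPM in Lkb1-/- MEFs and from 74.3, 83.3 and 87.3 CPM to 129, 160 and 166 CPM in clone A1. The difference was −0.87 (SE 0.13, FDR 0.00084), and that of clone A1 from clone A2 was −1.08 (FDR 1e-04). Of 20 matrix proteases and inhibitors, 5 were called lower, Mmp3, Mmp9, Plau and Plaur among them, and 2 higher (Mmp19 and Adamts1), and the call of Mmp19 was lost without 4 of the 6 pairs. Plau and Plaur encode urokinase and its receptor, with differences of −0.33 and −0.49. Of 12 adhesion molecules, Vcam1, Itga5 and Thbs1 were called lower, with differences of −0.67, −0.26 and −0.71, and the call of Itga5 was lost without 3 of the 6 pairs. Thbs1 fell in both genotypes, by 0.42 in Lkb1-/- MEFs and by 1.14 in clone A1 on the log2 scale.

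Of 22 CREB targets tested, 3 were called lower (Ptgs2, Egr1 and Id3) and 0 higher, against 0.913% and 0.611% of all genes, with a median of −0.07, and of 11 genes of the CRTC and CREB families 0 were called, with a median of −0.01. Creb1, Crebbp and Ep300 had differences of −0.02, 0.00 and 0.02 (SE 0.050 to 0.057). In the list of prostaglandin synthesis, Ptgs1 (−0.31, FDR 0.0053) and Ptgs2 were called lower, 2 of 13. In the IL-1 receptor pathway 1 of 21 genes was called, Irak3. In the JAK-STAT list 1 of 19 was called, Il6st (−0.44, FDR 0.00097), which encodes gp130, the shared receptor of the IL-6 family. Complement C3 (−0.44, FDR 0.0025) was the 1 gene called of 14 acute-phase proteins, Smad7 (−0.27, FDR 0.014) of 15 TGF-β pathway genes, and Tbx3 of 4 T-box factors. Of 25 interferon-stimulated genes, Usp18 was called lower and Irf1 (0.28, FDR 0.0091) higher, and the call of Usp18 was lost without each of the 6 pairs in turn. The calls of Smad7, Egr1 and Irf1 were lost without 3, 2 and 1 of the 6 pairs. No member was called of 12 AP-1 factors (median −0.12), 17 genes of mRNA decay and MAP kinase feedback (−0.07), 17 sterol genes (0.22), 10 proliferation markers (−0.03) or the 3 of 12 markers of other cell types that passed the filter. Among 9 fibroblast markers, Pdgfrb was called lower (−0.37) and Col1a2, Col3a1, Pdgfra and Dcn higher (0.23, 0.29, 0.35 and 0.46), beside the higher summed level of these markers in clone A1 given above. The call of Col1a2 was lost without each of the 6 pairs (FDR up to 0.17) and that of Col3a1 without 5 of them (FDR up to 0.21). Their part in the other differences was not tested.

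**Figure D4:**
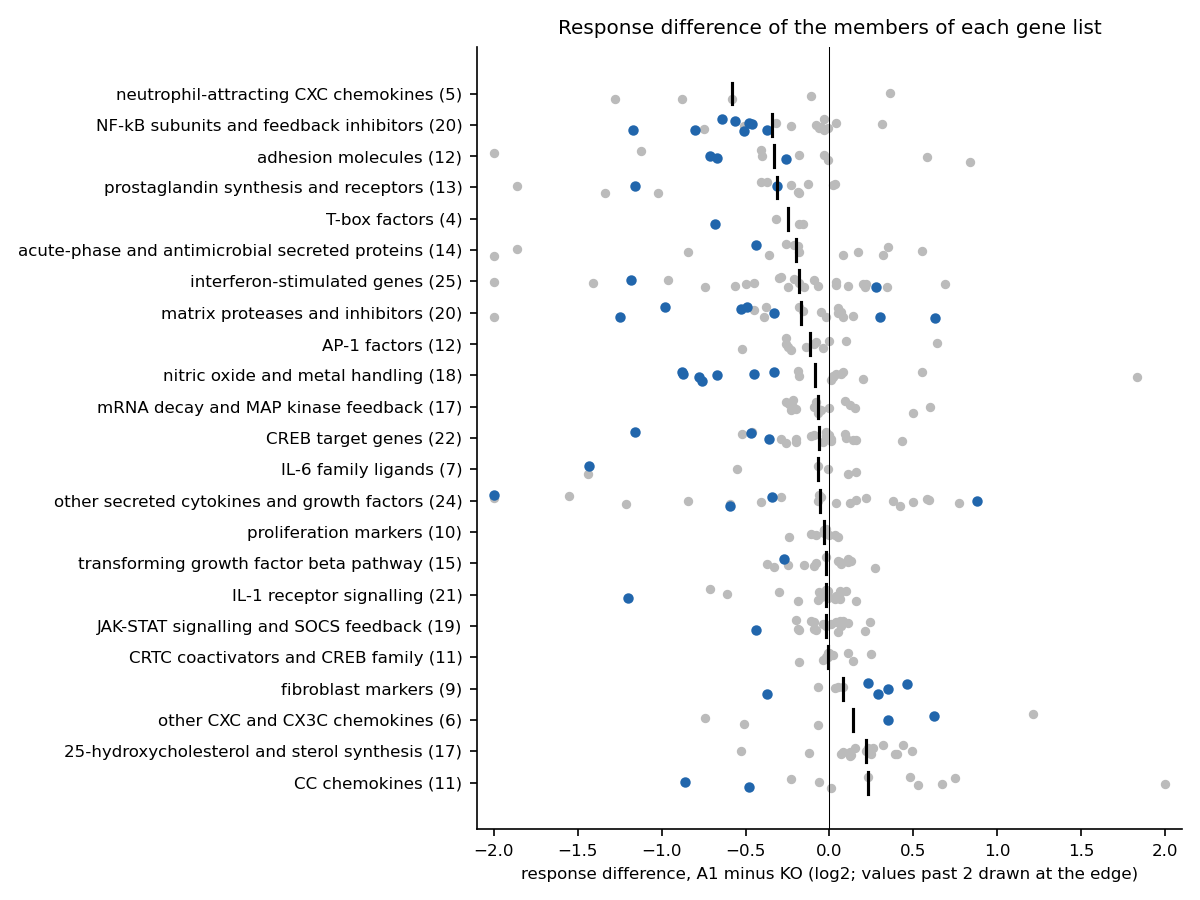
Difference of the IL-1β response, clone A1 minus Lkb1-/- MEFs (log2, fit with the block), of the members of the 23 lists with at least 4 genes tested, whose number is given in parentheses. Blue points are called genes, grey points are not called, black bars are medians, and values past 2 are drawn at the edge. The NF-κB list has 8 blue points, all left of 0.

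Among the 107 genes with a larger or less negative response in clone A1, the 10 with the largest difference by the same rule were Kcnj2, Ccn5, Enpp1, Hgf, Rasl11a, Gdf5, Gas7, Hey1, Zfpm1 and Atp2b4. Kcnj2, an inward rectifier potassium channel, fell from 11.4, 16.6 and 18.1 CPM to 10.1, 11.8 and 13.0 CPM in Lkb1-/- MEFs and rose from 11.9, 13.0 and 17.8 CPM to 21.4, 24.9 and 30.5 CPM in clone A1. The untreated groups overlapped and the treated groups did not, and the difference was 1.24 (SE 0.14, FDR 2.4e-05). Enpp1 encodes the ectoenzyme that produces pyrophosphate and hydrolyses cGAMP. It fell from 15.9, 22.2 and 29.3 CPM to 6.31, 10.4 and 13.4 CPM in Lkb1-/- MEFs, and in clone A1 from 23.0, 28.3 and 36.8 CPM to 20.1, 22.5 and 30.5 CPM. Libraries of 1 group differed by their number more than treatment changed clone A1, and the difference of 0.91 had an SE of 0.081 with the block (FDR 2.7e-06) and of 0.73 without it (FDR 1). In clone A2 Enpp1 fell by 1.07, and the clones differed by 0.80 (FDR 2e-06).

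Adamts1, a protease that cleaves aggrecan, had the same pattern. It fell from 130, 139 and 140 CPM to 81.8, 87.6 and 84.2 CPM in Lkb1-/- MEFs, and in clone A1 it was at 159, 239 and 158 CPM and then 153, 221 and 157 CPM. The difference was 0.63 (SE 0.063, FDR 8.2e-06 with the block, 1 without). Ccn5 (WISP2), a matricellular protein, went from 14.0, 21.7 and 20.9 CPM to 36.4, 44.6 and 42.5 CPM in clone A1 and was at 5.46, 8.14 and 7.71 CPM and then 4.51, 10.3 and 9.14 CPM in Lkb1-/- MEFs, where its response did not pass the test (FDR 0.47). Its difference was 1.00 (SE 0.15, FDR 0.0008), and that of Gas7, an actin regulator, was 0.80 (SE 0.081, FDR 8.8e-06). Rasl11a, Hey1 and Zfpm1 had differences of 0.81, 0.75 and 0.74. The calls of Gdf5 (0.80, a bone morphogenetic protein), Hgf (0.88, hepatocyte growth factor) and Atp2b4 (0.72, a plasma membrane calcium pump) were lost without 5, 2 and 3 of the 6 pairs. None of these genes was called without the block.

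Libraries outside the difference were used to choose genes that IL-1β changes. In wild-type MEFs, without the block, 268 genes rose (1.53%) and 128 fell (0.731%) after IL-1β. The median log2 response of the 268 was 0.71 in Lkb1-/- MEFs, 0.44 in clone A1, 0.71 in clone A2 and 0.94 in wild-type MEFs, whose libraries chose them. Medians by numbered pair come from log2 ratios with a prior count of 2, not from the fit, so they are not on the same scale. They were 0.60, 0.70 and 0.76 in Lkb1-/- MEFs and 0.46, 0.43 and 0.46 in clone A1. Every pair of clone A1 thus lay below every pair of Lkb1-/- MEFs. In clone A2 the pair medians were 0.57, 0.56 and 0.70. Of its 3 pairs, 2 also lay below every pair of Lkb1-/- MEFs, and all 3 above those of clone A1. Of the 268, 200 had a difference below 0 (74.6%), 39 were called lower (14.6%) and 4 higher (1.49%). Over all 17522 genes, 8661 had a difference below 0, and 0.913% were called lower and 0.611% higher. The median difference was −0.16, and without the block −0.15. For the 128 genes that fell in wild-type MEFs, the median response was −0.37 in Lkb1-/- MEFs and −0.34 in clone A1, and 2 were called in each direction. With the block, 1379 genes rose in wild-type MEFs, and their median difference was −0.02, with 80 called lower (5.8%) and 18 higher (1.31%). Of the 1444 genes that fell there, 13 were called lower (0.9%) and 38 higher (2.63%).

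**Figure D5:**
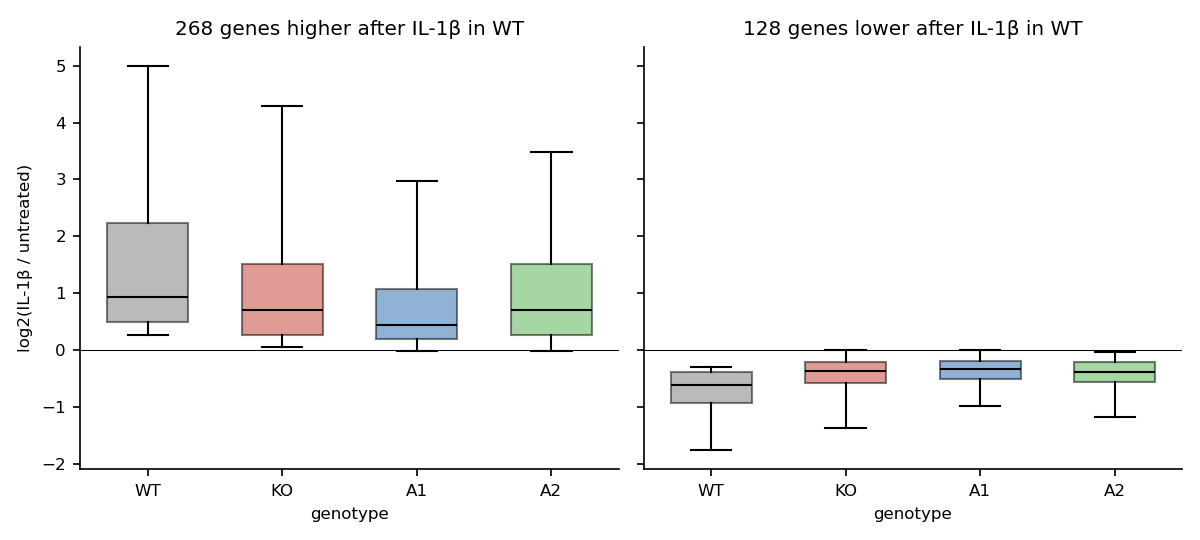
Log2 response to IL-1β in the 4 genotypes of the 268 genes that rose and the 128 that fell in wild-type MEFs. Boxes are quartiles with the median as a line, and whiskers reach the percentiles 5 and 95. Among the genes that rose, the box of A1 lies lowest, with a median of 0.44 against 0.71 in KO and A2.

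The same genes were also followed in clone A2, whose libraries did not enter the difference. Of the 160 genes called lower, 114 rose in clone A2 with the block, over all genes 10.5%, and 17 fell, over all genes 15.5%. The median log2 response of the 160 genes was 0.46 in clone A2 and 0.19 in wild-type MEFs. Of the 107 genes called higher, 72 fell and 16 rose in clone A2, with a median of −0.26. The responses of clones A1 and A2 differed for 262 genes with the block (1.5%), 130 lower in clone A1 (0.742%) and 132 higher (0.753%), a contrast that shares the libraries of clone A1 with the one against Lkb1-/- MEFs. Without the block 0 genes were called (0%) by edgeR, with 489 at an unadjusted p under 0.05, and 10 by DESeq2. The response of clone A2 differed from that of Lkb1-/- MEFs for 183 genes with the block (1.04%), 114 lower in clone A2 (0.651%) and 69 higher (0.394%), and for 0 without it (0%) by edgeR, with 388 at an unadjusted p under 0.05. This contrast shares the Lkb1-/- libraries with that of clone A1.

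A ratio depends on the level at the start, and this level was higher in clone A1 for 107 of the 160 genes called lower (66.9%), against 57.7% of all genes with a difference below 0. Read as a change in CPM, 148 of the 160 (92.5%) had a smaller change in clone A1, against 91.3% of all genes with a difference below 0, and 96 of the 107 called higher had a larger one, against 7858 of the 8856 genes with a difference above 0. Of the 8 called NF-κB genes, 7 started higher in clone A1 (87.5%) and 4 ended at a lower level after IL-1β (50%). All 8 had a smaller change in CPM, although by little for Nfkbia (127 against 128 CPM) and Tnfaip3 (57.1 against 60.3 CPM). Of the 5 genes called without the block, Ccl2 was the 1 exception, while Slc39a14 rose by 91.3 CPM in Lkb1-/- MEFs and by 0.477 CPM in clone A1.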

How the data were processed

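RNA sequencing libraries of MEFs were analysed from the counts that the authors deposited, which are whole-number counts of read pairs per gene from STAR. Per the labels' processing notes, Trim Galore 0.6.0 and STAR 2.7.8a were used with mm10. The library kit differs between the labels and the study's methods, which deplete ribosomal RNA, and is not settled. Counts for the reverse strand (column 4) were taken. They made up 95.6% to 96% of the sum of both stranded columns. Lines that name no gene (27.2% to 34.4% of pairs in the 12 libraries) were left out. Reads that map to several places are not counted, which lowers genes with near-identical copies.

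Low genes were removed by edgeR's filterByExpr on groups, at 10 counts and a total of 15, and libraries were scaled by TMM. edgeR 4.0.16 in R 4.3.3 took all 24 libraries and gave each group its own coefficient. The fit was made without a block (16 residual degrees of freedom) and with blocks for the numbered pairs of each genotype (8). An FDR under 0.05 was a call. SEs were derived from the log2 value and its F statistic. Log2 ratios of single pairs used a prior count of 2. The fits were tested on simulated data.

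Over 11355 genes, deviations from group means of same-numbered libraries of 1 genotype correlated at 0.432 to 0.697 (n = 6 pairs of Lkb1-/- MEFs and clone A1), and of other numbers at −0.622 to 0.254, so the numbers were taken to pair the libraries.

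The genes named were those called without the block, the called members of 24 gene lists (otherwise up to 4 by level) and genes the study names. Of the genes called with the block, the 10 with the largest difference in each direction were also named (mean log2 CPM above 2, ratios of the pairs not overlapping). Some members counted in the lists are not reported here by name. The contrast, members and lists were chosen with earlier results of these data known, and Tnfsf15 and the changes in CPM were looked at after their values were seen. Alternatives were unstranded counts, other scalings and filters, edgeR's newer method, DESeq2 1.42.0, only the genotypes compared, other blocks, and each library or pair left out. Symbols and positions are from GENCODE M21 on GRCm38 and promoter sequences from RefSeq.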

Additional observations from a re-analysis of the deposited data

Results flagged for a closer look

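Differences between the responses of 2 genotypes that passed the test of the difference itself are listed here. Without the block, the log2 response of clone A1 minus that of Lkb1-/- MEFs was −1.44 for Lif, −0.87 for Rab11fip1, −0.86 for Ccl2, −0.68 for Tbx3 and −0.67 for Slc39a14, in edgeR's test at an FDR under 0.05. With the block within genotype, 267 genes passed in this contrast and 262 in that of clone A1 minus clone A2, which share the libraries of clone A1. No group had more than 3 libraries, so single libraries were not tested for standing apart.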

How the results depend on the processing

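With the block, the count of genes with a response difference between clone A1 and Lkb1-/- MEFs was 258 to 327 with unstranded counts, other scalings, the stricter filter, the newer edgeR method, DESeq2 or only the 2 genotypes, and 188 of the 267 genes were called in all 8 such alternatives, the unfiltered fit included. It was 561 with no filter on low counts, 36 with the replicate block across all groups, and 5 with no replicate block. Without single numbered pairs it ranged from 152 (without pair 3 of Lkb1-/- MEFs) to 335 (without pair 1 of Lkb1-/- MEFs), and 114 genes, 76 lower and 38 higher, were called in all 6 of these fits. It was 169 without pair 2 of Lkb1-/- MEFs, and 175, 173 and 195 without pairs 1, 2 and 3 of clone A1.

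Without the block, the 5 calls became 3 with unstranded counts, 3 with upper quartile scaling, 4 with only the 2 genotypes (3 of them among the 5), 141 with no filter (111 of them lower), 12 with DESeq2 (10 lower), 36 with the replicate block across all groups and 267 with it within genotypes, and ranged from 0 to 3 without single libraries. The calls in Lkb1-/- MEFs were 1428 with no filter, 2601 and 3966 with these 2 blocks, and 537 to 704 without single libraries. In clone A1 they were 908, 1684 and 2860, 573 with DESeq2, and 201 to 243. Between clones A1 and A2 the 0 calls became 147 with no filter, 10 with DESeq2, and 30 and 262 with the 2 blocks, and ranged from 0 to 9. The cause of these shifts was not tested. No called gene of those named changed its direction. With DESeq2 and the block 228 of the 267 genes were called. The median difference of all genes was 0.001 with RLE and 0.004 with upper quartile scaling on the log2 scale. The effect of sequencing depth was not tested.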
